A study of Mus musculus with 14 samples.

Results

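The casein gene cluster of the mouse lies on chromosome 5 and was described in lactating mammary tissue from its exon and intron reads. It was represented by 7 genes chosen by name: the casein genes *Csn1s1*, *Csn2*, *Csn1s2a*, *Csn1s2b* and *Csn3* and the non-casein genes *Sult1d1* and *Odam*, which lie in or beside the same stretch. All 7 were found among the 20515 listed genes with a usable symbol. The study placed regulatory elements of the milk protein gene *Wap* beside its neighbor *Tbrg4*, on another chromosome, by deletions made with CRISPR-Cas9 in C57BL/6 mice. RNA was sequenced from the mammary glands of 2 wt/Wap-Tbrg4 females on day 10 of lactation (L10). These heterozygotes had a wt allele and a Wap-Tbrg4 allele, a fusion gene in which the *Wap* enhancer, promoter and first exon drive *Tbrg4*. Both mice had the same genotype, tissue and stage, so the only comparison possible was between genes and between the mice, and no test was made. The other 12 samples of the series, all from ChIP-seq, and RNA from wild-type mice were not analysed here.

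Caseins are the main proteins of milk. The alpha caseins encoded by *Csn1s1*, *Csn1s2a* and *Csn1s2b* and the beta casein encoded by *Csn2* bind calcium phosphate through clusters of phosphorylated serines, and kappa casein, encoded by *Csn3*, coats the resulting micelles and keeps them dispersed. Casein genes are switched on in the secretory alveolar cells during pregnancy and lactation by prolactin, which acts through JAK2 and the transcription factor STAT5, together with glucocorticoids. *Sult1d1* encodes a cytosolic sulfotransferase that conjugates small molecules, and *Odam* encodes a secreted protein of the ameloblasts and of the gum epithelium at the tooth surface that belongs to the same family of secreted calcium-binding phosphoproteins as the caseins.

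On GRCm38 (mm10), RefSeq placed the 7 genes between chr5:87554650-87932550, a stretch of 377901 bp. In order, *Sult1d1* lies at chr5:87554650-87569006 on the minus strand, *Csn1s1* at chr5:87666208-87682578 on the plus strand and *Csn2* at chr5:87692619-87699425 on the minus strand. These are followed on the plus strand by *Csn1s2a* at chr5:87774450-87788798, *Csn1s2b* at chr5:87808121-87824421, *Odam* at chr5:87885010-87894809 and *Csn3* at chr5:87925579-87932550. The closest pair was *Csn1s1* and *Csn2*, whose ends face each other across 10040 bp, and the widest gap was the 97201 bp between *Sult1d1* and *Csn1s1*. The casein genes differ in how finely they are split. *Csn1s1* has 34 exons in 1436 nt of collapsed exon sequence, *Csn2* has 9 in 1144 nt, and *Csn3* has 6 in 1843 nt. No other place in the genome held a near-identical copy of any of the 7, and the longest identical stretch between the exons of any pair was 16 nt, so reads of one member would rarely match another.

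Promoter sequences are shown because STAT5 carries the prolactin signal to these genes. RefSeq promoter windows on GRCm38.p6 were found for 5 of the 7 genes, those of *Csn1s1*, *Csn2*, *Csn1s2a*, *Sult1d1* and *Odam*. *Csn1s2b* and *Csn3* were not in the table. The 250 bases before the annotated start are printed for the casein genes, 5′ to 3′ in the direction of transcription. They cover chr5:87665958-87666207 on the plus strand for *Csn1s1*, chr5:87699426-87699675 on the minus strand for *Csn2* and chr5:87774200-87774449 on the plus strand for *Csn1s2a*. Capitals mark matches to TTCNNNGAA, the STAT5 recognition sequence, which reads the same on both strands.
Csn1s1: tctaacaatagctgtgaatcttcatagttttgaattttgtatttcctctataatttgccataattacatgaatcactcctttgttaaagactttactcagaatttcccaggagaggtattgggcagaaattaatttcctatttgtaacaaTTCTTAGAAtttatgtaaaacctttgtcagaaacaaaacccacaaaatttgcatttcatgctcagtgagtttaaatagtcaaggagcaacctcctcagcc
Csn2: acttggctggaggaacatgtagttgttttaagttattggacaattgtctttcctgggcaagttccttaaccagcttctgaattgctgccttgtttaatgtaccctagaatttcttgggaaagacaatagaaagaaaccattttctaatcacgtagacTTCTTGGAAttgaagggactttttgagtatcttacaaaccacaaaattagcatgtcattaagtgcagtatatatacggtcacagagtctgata
Csn1s2a: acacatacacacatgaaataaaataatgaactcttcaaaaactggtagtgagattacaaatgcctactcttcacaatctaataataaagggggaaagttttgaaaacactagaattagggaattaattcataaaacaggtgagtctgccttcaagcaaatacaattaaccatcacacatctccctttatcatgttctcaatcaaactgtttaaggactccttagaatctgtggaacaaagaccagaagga
*Csn1s1* held the match TTCTTAGAA at chr5:87666108-87666116, centered 96 bp before its start. *Csn2* held TTCTTGGAA at chr5:87699510-87699518, centered 89 bp before its start. The window of *Csn1s2a* held no match before the start, and TTCTTAGAA stood at chr5:87774470-87774478, bases 20 to 28 after it. No match to these letters was present in the windows of *Sult1d1* and *Odam*. Of 32851 RefSeq promoter windows, 7.02% held the motif in the 250 bases before the start and 8.3% in the full 300 bases. The CRE motif TGACGTCA, which also reads the same on both strands, was in none of the 5 windows, so it overlapped no match, and in 1.79% of all full windows. A match is a string of letters only, and binding was not measured in the data used here.

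All values are FPKM, fragments per kilobase of exon or intron, as scaled by the authors and deposited with 1 decimal. The total used for scaling is unknown. A ratio between the mice therefore need not be a ratio per sequenced read. Dividing by length lets genes be set beside each other, but it rests on the length of the authors' collapsed exons, which was not given in the sources used here. Counts and depth are also unknown, so error could be judged from the spread between the mice alone, given as mean ± SD (n = 2). The replicates are called mouse 1 and mouse 2. The summed exon FPKM was 852961 in mouse 1 and 1788119 in mouse 2, and the summed intron FPKM was 9092.5 and 10570.1.

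The 5 casein genes were among the 8 most abundant of all 20515 genes by exon FPKM in both mice. Among the alpha caseins, *Csn1s2a* had an exon FPKM of 168239.8 in mouse 1 and 455483 in mouse 2 (311861 ± 203111), rank 1 by the mean. *Csn1s1* had 48052 and 150368 (99209.9 ± 72348), rank 4. *Csn1s2b* had 38615 and 113643 (76129 ± 53052.5), rank 5. All alpha casein genes were thus higher in mouse 2, and the SD was of the same order as the mean. The beta casein gene *Csn2* had an exon FPKM of 108555 and 481937 (295246 ± 264021), rank 2 by the mean, and ranked 1 of all genes in mouse 2 but 3 in mouse 1. The kappa casein gene *Csn3* was the lowest casein gene in both mice, with 15499 and 64070.4 (39784.8 ± 34345), rank 8. The values of mouse 1 and mouse 2 stood apart in every casein gene, with mouse 2 higher. On the deposited values, the 10 markers of luminal alveolar epithelium had a median log2 ratio of mouse 2 to mouse 1 of -0.02. Whether the mice differed in their share of secretory cells was not tested.

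The non-casein members stood at the other end of the scale. *Sult1d1*, the sulfotransferase gene at the start of the cluster, had an exon FPKM of 2.6 in mouse 1 and 4.7 in mouse 2 (3.65 ± 1.48), rank 6410. *Odam*, which lies between *Csn1s2b* and *Csn3*, had 1.3 and 4.2 (2.75 ± 2.05), rank 7313. Both exceeded the mean of 1 FPKM used as a filter on low values, so all 7 members passed it. *Csn3*, the lowest casein gene, still exceeded *Sult1d1* 5961-fold in mouse 1 and 13632-fold in mouse 2, and exceeded *Odam* 11923-fold and 15255-fold. These gaps between neighbors in the cluster exceeded the spread between the mice by orders of magnitude. The genes directly above and below in mean exon FPKM were *Bpgm* (3.7) and *Gucy1a1* (3.65) for *Sult1d1*, and *Usp43* (2.8) and *Wfdc21* (2.7) for *Odam*.

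**Figure D1:**
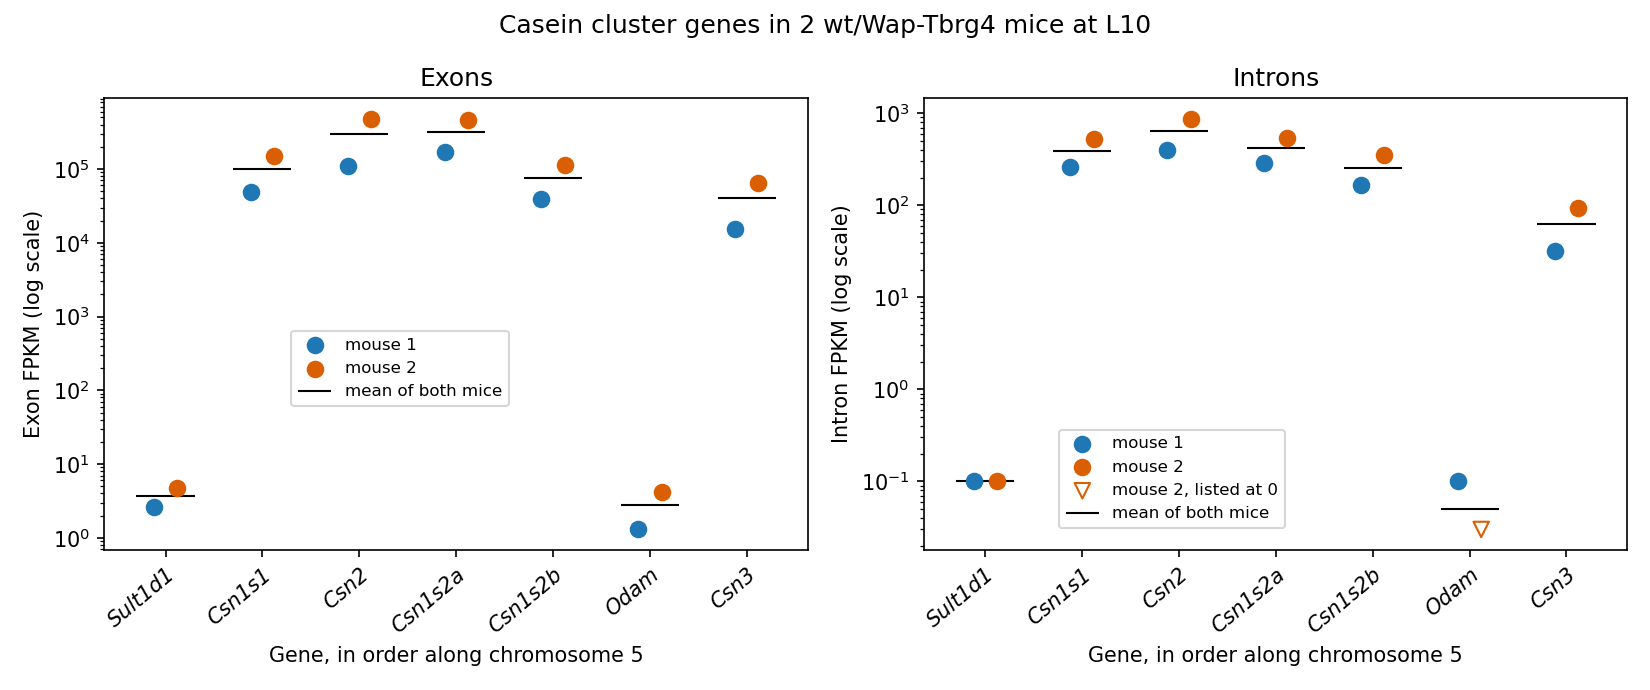
Exon FPKM (left) and intron FPKM (right) of the 7 genes on log axes, in their order along the chromosome, with a point for each mouse and a line at the mean of both. The casein genes sit between 15499 and 481937 in exons and *Sult1d1* and *Odam* between 1.3 and 4.7, and the open triangle marks the intron value of *Odam* that was listed at 0.

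In exon FPKM the order by mean was *Csn1s2a*, *Csn2*, *Csn1s1*, *Csn1s2b*, *Csn3*, *Sult1d1* and *Odam*. Of the 6 neighboring pairs in this order, 5 stood in the same order in both mice. The exception was the top pair. *Csn1s2a* exceeded *Csn2* 1.55-fold in mouse 1 and was 0.945 times *Csn2* in mouse 2, so these genes did not differ beyond the spread between the mice. *Csn2* exceeded *Csn1s1* 2.26-fold and 3.21-fold, and *Csn1s2b* exceeded *Csn3* 2.49-fold and 1.77-fold. The steps from *Csn1s1* to *Csn1s2b* (1.24-fold and 1.32-fold) and from *Sult1d1* to *Odam* (2-fold and 1.12-fold) were the smallest that kept their direction on the deposited values. The order also depended on the gene model. RefSeq transcripts of *Csn3* range from 846 to 1651 nt, while its collapsed exons come to 1843 nt. Restated over the shortest curated transcript of each gene, a calculation chosen after seeing the data, *Csn3* was at 33765 in mouse 1 and 139576.5 in mouse 2 and *Csn1s2b* at 40353.8 and 118759, so that *Csn3* was higher in mouse 2 only and 4 of the 6 pairs kept one order in both mice. Restated from the collapsed exons of GENCODE in the same way, *Csn2* stood above *Csn1s2a* in both mice, and 5 of 6 pairs kept one order. The pair that did not was then *Csn1s1* and *Csn1s2b*, with 217680.5 and 224369.1 in mouse 1 and 681180.3 and 660307.1 in mouse 2.

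As a share of the summed exon FPKM, the 5 casein genes together held 44.4% in mouse 1 and 70.8% in mouse 2 (57.6% ± 18.6). *Csn1s2a* alone held 19.7% and 25.5%, and *Csn2* held 12.7% and 26.95%. *Csn1s1* (5.63% and 8.41%), *Csn1s2b* (4.53% and 6.36%) and *Csn3* (1.82% and 3.58%) held the rest, while *Sult1d1* (0.000305% and 0.000263%) and *Odam* (0.000152% and 0.000235%) held next to nothing. The share of *Csn2* thus differed more between the mice than that of any other casein gene. The summed exon FPKM of the casein genes was 378961.5 in mouse 1 and 1265501 in mouse 2, a 3.34-fold difference. Without them the sums were 473999 and 522618, a 1.10-fold difference, and the casein genes made up 94.8% of the difference between the summed exon FPKM of the mice.

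Within the casein genes the composition shifted between the mice. The alpha casein genes together made up 67.3% of the casein exon FPKM in mouse 1 and 56.9% in mouse 2. *Csn1s2a* went with this, at 44.4% and 36.0%, whereas *Csn1s1* (12.7% and 11.9%) and *Csn1s2b* (10.2% and 8.98%) were closer in both mice. The beta casein gene *Csn2* made up 28.6% and 38.1%, and the kappa casein gene *Csn3* made up 4.09% and 5.06%. Some pairs were close in proportion between the mice in exon FPKM: *Csn2* was 7.004 and 7.52 times *Csn3*, and *Csn1s2a* was 4.36 and 4.01 times *Csn1s2b*. In intron FPKM, *Csn2* was 12.6 and 9.32 times *Csn3*.

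**Figure D2:**
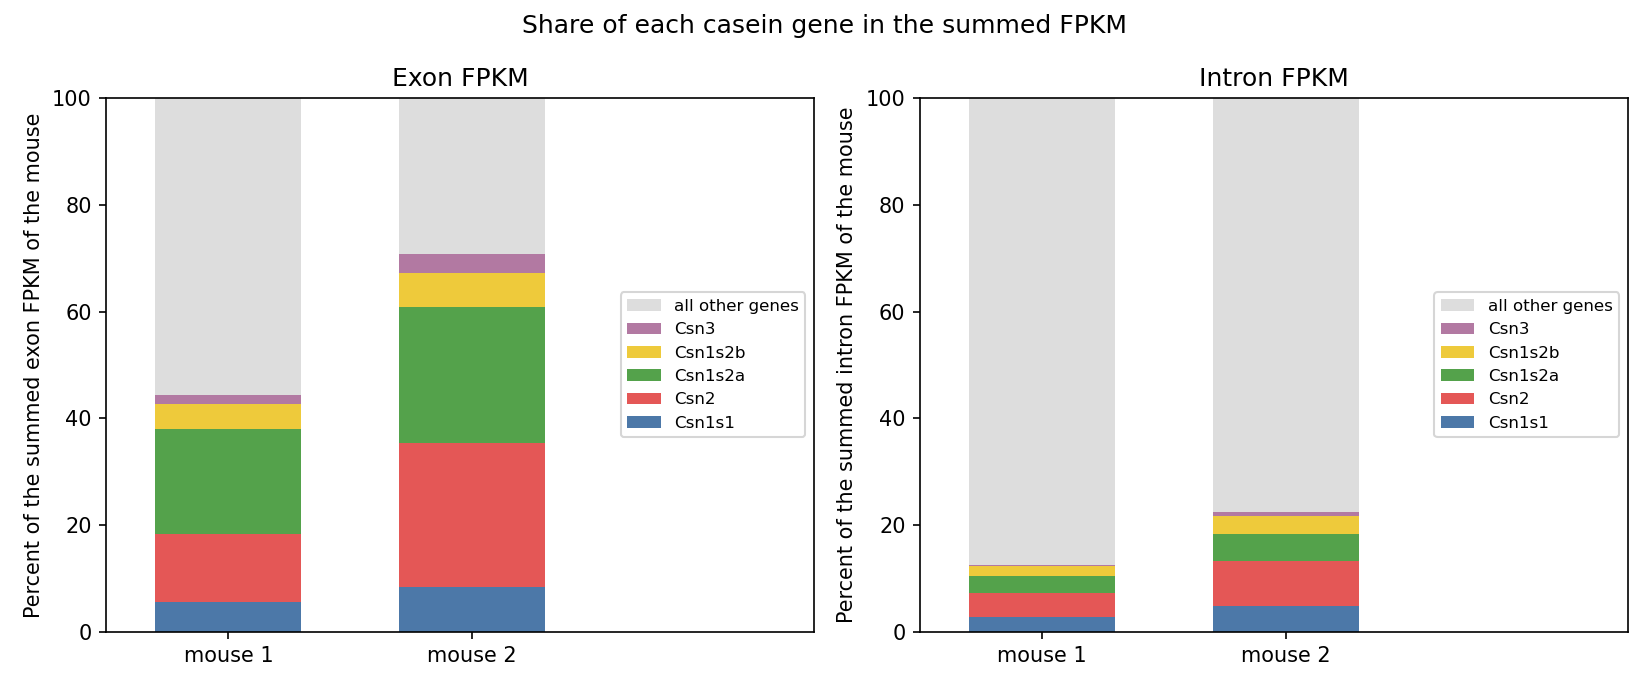
Stacked bars of the percentage of the summed exon FPKM (left) and intron FPKM (right) of each mouse that each casein gene held, with all other genes in grey. The casein genes together reach 44.4% and 70.8% of exon FPKM but 12.6% and 22.5% of intron FPKM.

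Intronic reads mark RNA from which introns are yet to be removed. The authors derived intron coordinates from the collapsed exons, and the intron length used for FPKM was not given in the sources used here. By intron FPKM, *Csn2* ranked 1 of all genes in both mice, with 402.9 in mouse 1 and 875.8 in mouse 2 (639 ± 334). *Csn1s2a* had 287.2 and 543.2 (415 ± 181), *Csn1s1* had 260.4 and 522 (391 ± 185) and *Csn1s2b* had 164.4 and 348.3 (256 ± 130). Their ranks by the mean were 2, 4 and 5. *Csn3* had only 32.1 and 94 (63.0 ± 43.8), rank 11. The order *Csn2*, *Csn1s2a*, *Csn1s1*, *Csn1s2b* and *Csn3* was the same in both mice, so that unlike in exons *Csn2* stood above *Csn1s2a* in each, 1.40-fold and 1.61-fold. *Csn1s2a* exceeded *Csn1s2b* by only 1.75-fold and 1.56-fold in introns, compared with 4.36-fold and 4.01-fold in exons. Intron FPKM of *Sult1d1* was 0.1 in both mice, and *Odam* had 0.1 in mouse 1 and was listed at 0 in mouse 2. These members did not reach the mean of 0.5 used as a filter on intron values, which the 5 casein genes passed.

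The casein genes held 12.6% of the summed intron FPKM in mouse 1 and 22.5% in mouse 2 (17.6% ± 7.02). Their share of introns was therefore much smaller than their share of exons in each mouse. The casein intron FPKM summed to 1147 and 2383.3, a 2.08-fold difference, while the intron FPKM of all other genes summed to 7945.5 and 8186.8, a 1.03-fold difference. Composition in introns was closer between the mice for *Csn2* and *Csn1s2a*, but not for *Csn3*. *Csn2* made up 35.1% and 36.7% of the casein intron FPKM, *Csn1s2a* 25.0% and 22.8%, *Csn1s1* 22.7% and 21.9%, *Csn1s2b* 14.3% and 14.6% and *Csn3* 2.80% and 3.94%.

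The exon to intron ratio sets spliced against unspliced RNA of the same gene. Like the exon levels, it rests on the exon lengths. On the deposited values *Csn1s2a* had the highest ratio of the casein genes in both mice, 586 in mouse 1 and 839 in mouse 2 (712 ± 179). It was followed by *Csn3* with 483 and 682 (582 ± 141) and *Csn2* with 269 and 550 (410 ± 199). *Csn1s2b* had 235 and 326 (281 ± 64.6), and *Csn1s1*, the gene split into the most exons, had the lowest ratio with 185 and 288 (236 ± 73.2). The order of the 5 genes was the same in both mice. With exons restated over the shortest curated transcript, *Csn3* (1052 and 1485) stood above *Csn1s2a* (612 and 877) in both mice. Restated from the collapsed exons of GENCODE, exon FPKM was multiplied by 6.41 for *Csn2*, 5.81 for *Csn1s2b*, 4.91 for *Csn3*, 4.53 for *Csn1s1* and 3.53 for *Csn1s2a*. With multipliers this unequal, the order of the ratios given above need not hold on that scale, and it was not calculated there. Over the 4114 genes with a ratio in both mice and past both filters, the median ratio was 13.7 in mouse 1 and 13.1 in mouse 2, compared with 269 and 550 for the median casein gene. Among the 20 of these genes whose exon FPKM averaged at least 1000, *Csn1s2a* ranked 4, *Csn3* 6, *Csn2* 10, *Csn1s2b* 11 and *Csn1s1* 12 by the ratio of mean values. For *Sult1d1* the ratio was 26 and 47, and since its intron FPKM of 0.1 was rounded, values from 17 to 53 and from 31 to 95 were possible. *Odam* had 13 in mouse 1, with a possible range of 8.33 to 27, and at least 83 in mouse 2.

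**Figure D3:**
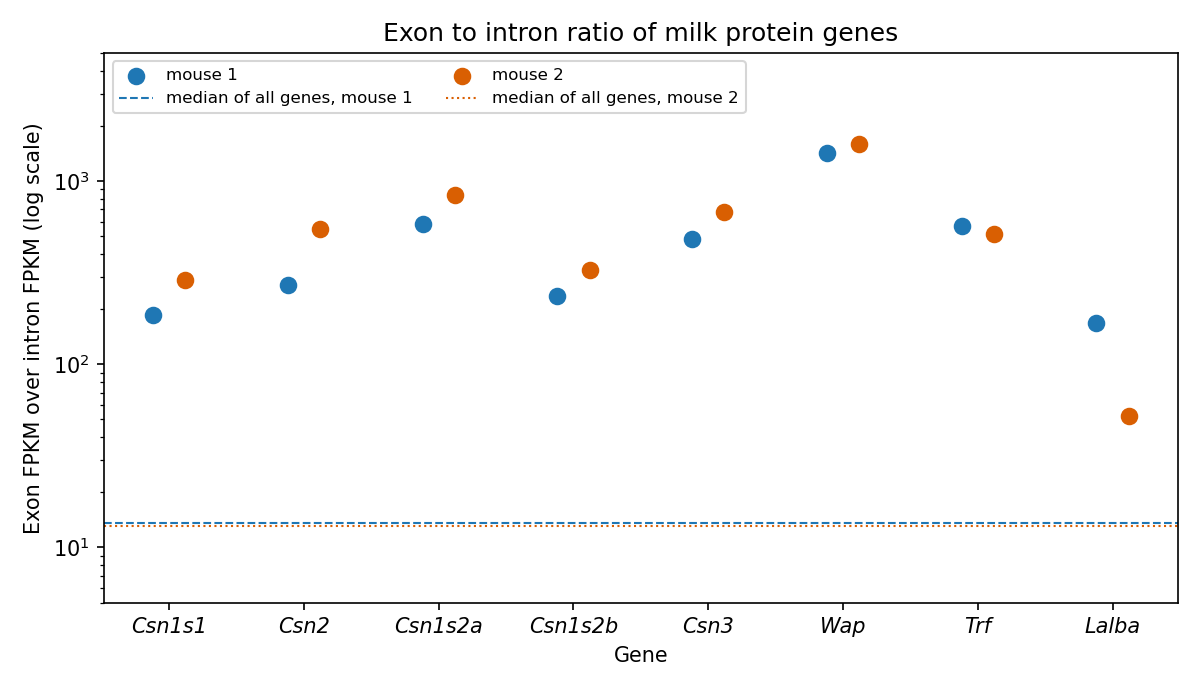
Exon FPKM divided by intron FPKM, on a log axis, for the casein genes and for *Wap*, *Trf* and *Lalba*, with a point for each mouse and lines at the median of 4114 genes. All casein genes lie above the medians of 13.7 and 13.1 and are higher in mouse 2 on this deposited scale, but only *Csn2* is with equal exon and intron sums, whereas *Lalba* is at 167 in mouse 1 and 52.4 in mouse 2.

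The exon FPKM of 6 of the 7 members, the casein genes and *Odam*, was more than 2-fold higher in mouse 2 than in mouse 1 on the log2(FPKM + 1) scale. Over the 9845 genes whose exon FPKM averaged at least 1, 1.08% were higher by this much and 4.82% were lower. The log2 ratio of mouse 2 to mouse 1 was 2.15 for *Csn2*, 2.05 for *Csn3*, 1.65 for *Csn1s1*, 1.56 for *Csn1s2b* and 1.44 for *Csn1s2a*. Beta and kappa casein therefore differed most, 4.44-fold and 4.13-fold in FPKM, and the alpha casein genes less, from 2.71-fold for *Csn1s2a* to 3.13-fold for *Csn1s1*. The casein median was 1.65, compared with -0.08 for all 9845 genes. *Odam* had a log2 ratio of 1.18 and *Sult1d1* one of 0.66, which at these low values the added 1 FPKM makes smaller than the plain differences of 3.23-fold and 1.81-fold. *Csn1s2b* exceeded *Odam* 29704-fold in mouse 1 and 27058-fold in mouse 2, and whether casein reads were counted on *Odam* was not tested. Only 3 genes had a higher log2 ratio than *Csn2*, 4 a higher one than *Csn3* and 17 a higher one than *Csn1s2a*, but 519 a higher one than *Sult1d1*. Other members are included in these counts where they were higher. *Prol1* (2.95), a gene within 500 kb of the cluster, was among those above *Csn2*.

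The introns of 4 of the 5 casein genes were also more than 2-fold higher in mouse 2, compared with 2.65% of the 4220 genes whose intron FPKM averaged at least 0.5. The log2 ratio of intron FPKM was 1.55 for *Csn3*, 1.12 for *Csn2*, 1.08 for *Csn1s2b* and 1.00 for *Csn1s1*. For *Csn1s2a* it was 0.92, just under the limit. In each casein gene the intron difference was smaller than the exon difference, and the exon to intron ratio was higher in mouse 2 in all 5, by 2.04-fold in *Csn2*, 1.56-fold in *Csn1s1*, 1.43-fold in *Csn1s2a*, 1.41-fold in *Csn3* and 1.39-fold in *Csn1s2b*. That ratio was higher in mouse 2 in 43.1% of the 4114 genes. Both steps hold for the deposited scale. With the summed intron FPKM of each mouse set to 10000, the casein median of the intron log2 ratio was 0.87 and only *Csn3* passed 2-fold (1.33). With exon and intron sums each set equal, a calculation chosen after seeing the data, the exon to intron ratio was higher in mouse 2 in *Csn2* alone of the casein genes (1.13-fold) and in 7.15% of all 4114 genes. The casein median of its log2 change turned from 0.52 to -0.33, compared with -0.94 for all genes.

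These differences depended on the scale. When each mouse was set to a summed exon FPKM of 1000000, a sum that the casein genes themselves dominate, the median log2 ratio of all genes moved to -0.90 and that of the casein genes to 0.58. All 5 casein genes were still higher in mouse 2 on that scale, but only *Csn2* by more than 2-fold (1.08), and *Sult1d1* turned to -0.16. Of all 9845 genes, 0.0609% were more than 2-fold higher and 42.5% more than 2-fold lower on it. GC content moved with the difference as well. Exons of the 7 members were 33.0% to 43.5% GC, within the lowest 2 of 10 groups of genes by GC content, and the lowest group had a median log2 ratio of 0.39 with 3.70% of its genes more than 2-fold higher. After removal of the relation to GC content, the log2 ratio was 1.87 for *Csn2*, 1.52 for *Csn3*, 1.41 for *Csn1s1*, 1.22 for *Csn1s2b* and 1.10 for *Csn1s2a*, while *Odam* had 0.79 and *Sult1d1* -0.052. On that scale, with other members included in the counts, 7 genes were above *Csn2*, 12 above *Csn3*, 73 above *Csn1s2a* and 5489 above *Sult1d1*. Of the 9725 genes with GC content, 1.13% were more than 2-fold higher and 0.781% more than 2-fold lower after this correction.

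**Figure D4:**
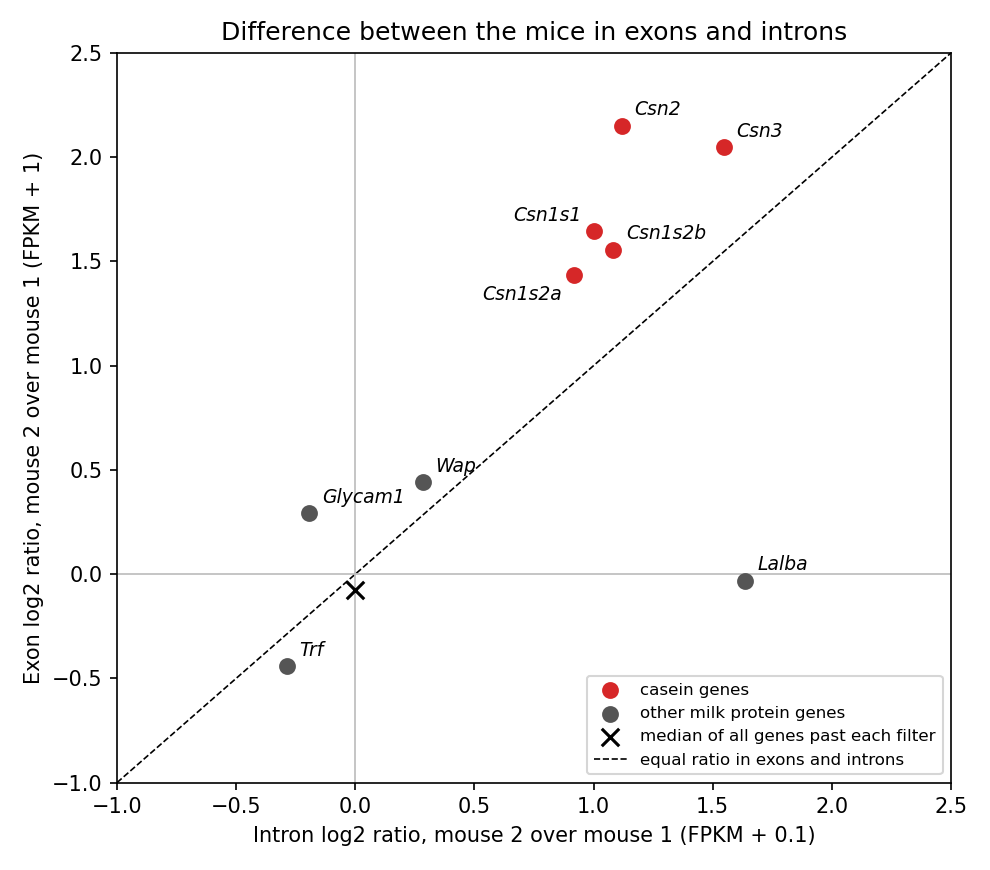
Log2 ratio of mouse 2 to mouse 1 in exon FPKM (vertical, 1 FPKM added) against intron FPKM (horizontal, 0.1 FPKM added) for the casein genes and 4 other milk protein genes, with the median of all genes as a cross and a dashed line where both ratios are equal. The casein genes lie at 0.92 to 1.55 in introns and 1.44 to 2.15 in exons, all above the dashed line.

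On the deposited scale, exons of the other milk protein genes differed less, and none of the 4 was more than 2-fold apart. *Wap*, the whey acidic protein gene, which is intact on the wt allele only, had an exon FPKM of 172935 in mouse 1 and 234774 in mouse 2 (log2 ratio of 0.44). *Csn2* was therefore below *Wap* in mouse 1 and above it in mouse 2, with *Wap* at 1.59 and 0.487 times *Csn2*. *Glycam1*, which encodes a mucin-like milk protein, had 47528 and 58226 (0.29), and *Lalba*, which encodes the lactose synthase subunit alpha-lactalbumin, had 8453.5 and 8265.4 (-0.03). *Trf*, the transferrin gene, went the other way with 63333 and 46657 (-0.44). On the scale of equal sums, *Wap* and *Glycam1* turned to -0.63 and -0.77, and *Lalba* (-1.10) and *Trf* (-1.51) were more than 2-fold lower in mouse 2. The casein genes lay at 0.37 to 1.08 on that scale, so the other milk protein genes did not differ less there. Exons of these 4 genes were 48.9% to 52.9% GC, compared with 37.0% to 43.5% for the casein genes. After the GC correction *Wap* was at 0.67, *Glycam1* at 0.30, *Lalba* at 0.07 and *Trf* at -0.21. The casein genes then lay at 1.10 to 1.87. By mean exon FPKM, *Wap* stood directly between *Csn2* and *Csn1s1*, *Trf* was the next gene below *Csn1s2b*, and *Glycam1* and *Lalba* were the genes next above and below *Csn3*. In introns, the casein genes had log2 ratios of 0.92 to 1.55 on the deposited scale. *Lalba* differed more than any of them, with 50.6 and 157.6 FPKM (1.64), and *Wap* less than any, with 121.6 and 148.1 (0.28).

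Around the cluster, 26 listed genes lay within 500 kb of the stretch. Of the 19 that were not members, 11 were listed at 0 in both mice, 6 had a mean above 0 but below 1 FPKM, and 2 reached 1 FPKM. A value of 0 is not proof of absence in these files, since *Ppia* and *Gapdh*, genes that every cell uses, had exon FPKM of 0.4 and 0, and of 0.1 and 0.3. The genes next to the members were low: *Sult1e1*, the estrogen sulfotransferase gene between *Sult1d1* and *Csn1s1*, had 0.2 in both mice, and *Sult1b1*, on the other side of *Sult1d1*, had 0 and 0.1. *BC037156*, between *Odam* and *Csn3*, and *Cabs1*, the next gene after *Csn3* on that strand, were listed at 0. The genes that reached 1 FPKM were *Prr27* and *Prol1*. *Prr27*, which starts 1275 bp after the end of *Csn1s2b* on the same strand, had 0.8 and 2.8, and *Prol1*, 384761 bp beyond *Csn3*, had 1.2 and 16. Of 16 listed flanking genes chosen by name, some of them farther away, the others that passed the filter were *Jchain* (107.4 and 89.3), *Rufy3* (1.8 and 1.6) and *Grsf1* (25.1 and 30). *Csn1s2b* exceeded *Prr27* 48269-fold and 40587-fold, and whether reads past the end of *Csn1s2b* were counted on *Prr27* was not tested. The long noncoding RNA gene *1700066N21Rik* crosses *Csn3* on the opposite strand. Its intron FPKM was 0.6 and 0.3, whereas all exon reads of *Csn3*, had they been counted there without regard to strand, would have given 408 and 1687.

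**Figure D5:**
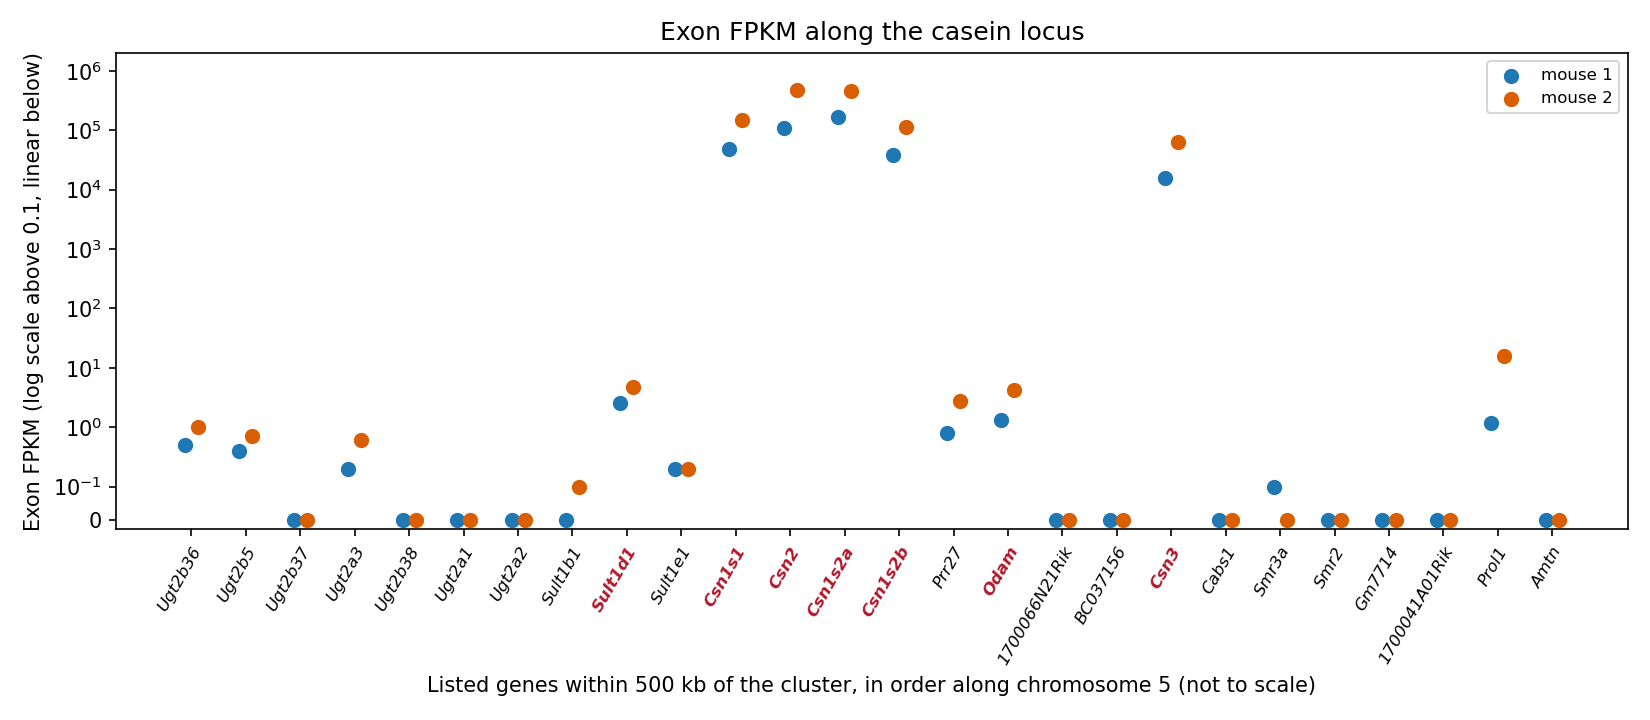
Exon FPKM of the 26 listed genes in and within 500 kb of the cluster, in their order along the chromosome and not to scale, with a point for each mouse on an axis that is logarithmic above 0.1 and linear below. The 5 casein genes (members in bold) stand at 15499 to 481937, and no other gene shown passes 16.

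Relatives of the non-casein members outside the cluster were looked at in the same way. Of 9 sulfotransferase genes, 2 passed the filter, *Sult1d1* itself and *Sult1a1*, a phenol sulfotransferase gene with 12.3 and 21.4 FPKM. Of 11 listed genes of the secreted calcium-binding phosphoproteins and their SPARC relatives, 4 passed, and 7 genes of enamel, dentin and bone matrix (*Amtn*, *Ambn*, *Enam*, *Ibsp*, *Dmp1*, *Dspp* and *Mepe*) were listed at 0. *Spp1*, the osteopontin gene, had 291.9 and 200.5, *Sparc* had 127.9 and 138.5, and *Sparcl1* had 22.2 and 22.5, all above *Odam*.

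Genes that act on the caseins were set beside them on the deposited scale. All 13 listed regulators passed the filter with a median log2 ratio of 0.14, compared with 1.65 for the casein genes and -0.08 for all genes. None was more than 2-fold higher in mouse 2 and 1 was more than 2-fold lower, where 1.08% and 4.82% of all genes were, so these counts were near the background. The prolactin receptor gene *Prlr* had 20 and 25.9 FPKM, *Stat5a* 21 in both mice, *Elf5* 185.8 and 204.8, and the glucocorticoid receptor gene *Nr3c1* 59.8 and 78.8. Among inhibitors of cytokine signaling, *Socs2* had 8.3 and 16.4, and *Socs3*, the gene that was lower, had 3.4 and 1.1. The 13 genes for modification and secretion had a median of 0.06, with none more than 2-fold higher and 1 more than 2-fold lower, again near the background. *Fam20c*, the kinase gene for casein serines, had 69.1 and 50.4, and *Atp2b2*, the calcium pump of the apical membrane, had 208 and 160.6. *Atp2c2*, a Golgi calcium pump gene, was the one that was lower, with 115.7 and 51.5.

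Markers of the cell types of the gland were set beside the difference between the mice. All 10 markers of luminal alveolar epithelium passed the filter, with a sum of 184160.4 and 246008 FPKM that was mostly *Wap* and a median log2 ratio of -0.02, and 3 of them, the keratin genes *Krt8*, *Krt18* and *Krt19*, were more than 2-fold lower in mouse 2, as were 4.82% of all genes. For example, *Krt18* had 145 and 57.6 FPKM. The other luminal markers were split. *Wap* (log2 ratio of 0.44), *Btn1a1* (0.28), *Cdh1* (0.25) and *Elf5* (0.14) were higher in mouse 2, and *Epcam* (-0.26), *Lalba* (-0.03) and *Xdh* (-0.009) were lower. Myoepithelial markers summed to 163.8 and 101 FPKM (6 of 7 passed, *Myh11* highest with 69.2 and 38.8, *Acta2* listed at 0). Adipocyte markers summed to 1334.5 and 1167.3 (7 of 7, *Cfd* highest with 692 and 436.5), and those of fibroblasts to 161.7 and 147.2 (5 of 5, *Dcn* highest by the mean with 42.9 and 78.4). Single markers went further than these sums, since *Krt14* (17.9 and 5.4) and *Krt17* (11.1 and 3.5) of the myoepithelium, *Plin1* (7.8 and 2.6) of adipocytes and *Col1a1* (23.5 and 11.2) of fibroblasts were more than 2-fold lower in mouse 2. In the myoepithelial list *Oxtr* (18.9 and 23.6) was higher in mouse 2, as were *Dcn* and *Pdgfra* (3.6 and 3.8) in the fibroblast list. The adipocyte markers were split, with *Adipoq* (85.3 and 113), *Pparg* (8.4 and 11.3), *Fabp4* (501.7 and 564) and *Cidec* (33.7 and 35.6) higher in mouse 2 on the deposited scale. The median log2 ratio was -0.79 for the myoepithelial list, 0.08 for the adipocyte list and -0.69 for the fibroblast list. None of these marker values was corrected for GC content. Over the 9725 genes with GC content, the log2 ratio fell as GC content rose (Spearman correlation of -0.66). The highest of the 10 GC groups had a median log2 ratio of -0.74. Endothelial markers summed to 51.9 and 46 (5 of 5, *Cdh5* highest), leukocyte markers to 16.9 and 12.8 (5 of 7, *Csf1r* highest), plasma cell markers to 117.3 and 96.3 (3 of 4 listed, *Jchain* highest) and erythroid markers to 271.2 and 294.8 (2 of 2 listed, *Hbb-bs* highest). The part of cell composition in the difference of the casein genes was not tested.

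The genes whose exon log2 ratio was nearest the casein median of 1.65 among 3107 other genes whose exon FPKM averaged at least 10, by absolute difference over the 2 mice, were *Apoc1* (1.64), *Rpl39* (1.67), *Snhg3* (1.77), *Rps27l* (1.79) and *Muc15* (1.46). Of these, *Muc15*, which encodes a mucin of the milk fat globule membrane, was the most abundant, with 406.2 and 1116.1 FPKM. Of the 3107 genes, 8 were above the lowest casein gene in this ratio and 2 above the highest. Those 2, named after their values were seen, were *Pglyrp1* with 1.3 and 41.2 FPKM and *Pip* with 11.8 and 87.6, which encode a peptidoglycan recognition protein and the prolactin-induced protein.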

How the data were processed

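Total RNA from L10 mammary glands of 2 wt/Wap-Tbrg4 mice was sequenced by the authors from TruSeq Stranded Total RNA libraries on an Illumina HiSeq system. Per the labels and the study's methods, STAR was used to map to mm10, and HTSeq to count reads on introns and on exons, which were merged over the transcripts of every UCSC known gene. The authors used DESeq2 to obtain the FPKM, which were deposited with 1 decimal for 20550 genes. Versions, the scaling total, the strand setting and the handling of multi-mapped reads were not given in the sources used here, and depth is unknown. Rows without a usable symbol (35) were not used. The members and gene lists were chosen with earlier results of these data known. Flanking genes, sulfotransferases, secreted phosphoproteins, regulators, modification genes, other milk protein genes and cell type markers were listed by name, and genes nearest in pattern (5) or level by rule. The names *Fdcsp*, *Muc10*, *Igj*, *Utp3*, *Cebpb*, *Hba-a1* and *Hbb-bt* were not analysed here.

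A share is a percentage of all FPKM summed in that mouse. Differences between mice were taken as log2(FPKM + 1) for exons over genes with a mean of at least 1, and as log2(FPKM + 0.1) for introns over genes with a mean of at least 0.5. With 2 mice of one genotype, no test was made. Curated RefSeq transcripts on GRCm38 gave positions, lengths and GC content for 98.2% of the genes. The GC correction subtracted a lowess fit (span of 30%) and was tested on simulated data. Near-identical copies were places aligned over at least 50% of the exon length at an identity of at least 95%. Alternatives to the pseudocount, filter, scaling, share and mean were tried, and each mouse was left out in turn. Python 3.11.15, numpy 2.4.6, pandas 2.3.3, statsmodels 0.14.6, matplotlib 3.10.9 and minimap2 2.31 were used.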

Additional observations from a re-analysis of the deposited data

How the results depend on the processing

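The alternatives gave 161 recomputed values. With 2 mice, leaving one out stays within 1 SD of the mean by construction, so those alternatives show no stability. No paired analysis was possible because the RNA came from a single group. Over all genes, 581 differed more than 2-fold, and this count was 1102 at a pseudocount of 0.1, 4193 with each mouse set to a summed exon FPKM of 1000000, 186 after the GC correction and 231 where the filter was 10 FPKM. The median casein exon log2 ratio of 1.65 became 0.58 with equal sums and 1.41 after the GC correction, and stayed above 0 under every alternative run. Members more than 2-fold apart fell from 6 to 1 with equal sums and numbered 5 after the GC correction and with the higher filter, which leaves 5 members. The median casein intron log2 ratio of 1.08 became 0.87 with intron sums set to 10000, and the median casein log2 change of the exon to intron ratio turned from 0.52 to -0.33 with exon and intron sums each set equal. Signs changed for *Sult1d1* (-0.16 with equal sums, -0.052 after the GC correction), *Wap* (-0.63 with equal sums), *Glycam1* (-0.77 with equal sums) and *Lalba* (0.043 after centring on the median, 0.021 with equal sums of all but the 10 highest genes, 0.072 after the GC correction). Equal sums lower mouse 2 against mouse 1 in every gene, and the cause of the other changes was not tested. The casein share of exon FPKM was 55.7% and 81.5% without *Wap* in the sum and 35.5% and 65.1% after FPKM were multiplied by RefSeq exon length, which need not be the authors' length. The equal exon and intron sums and the restated gene lengths were chosen after seeing the data. The unknown depth sets no interval on low values such as the introns of *Sult1d1* and *Odam*.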
